A study of Homo sapiens with 16 samples.

Results

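The comparison described here is the response of the pancreatic cancer line PANC1 to genistein alone, across all genes. It sets 2 libraries of PANC1 cells given 50 uM genistein for 24 h against 2 libraries of PANC1 control cells, which received neither genistein nor gemcitabine, 4 of the 16 libraries in the series. The members were fixed by the labels of the libraries and not by any measured value. Of 63677 gene identifiers in the count table, 16909 held enough reads in the 8 PANC1 libraries to be tested. The other PANC1 groups, used here only to check the response, were 40 nM gemcitabine and the cotreatment with 50 uM genistein and 40 nM gemcitabine, each for 24 h with 2 libraries. The second line, MiaPaCa2, had the same 4 groups of 2 libraries.

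PANC1 is an established line from a human pancreatic ductal adenocarcinoma, and both lines were grown in DMEM with fetal bovine serum. The labels do not say whether the control cells received a vehicle, and the methods name DMSO as the solvent of genistein. The methods call replicates I and II biological, without saying how they were kept apart, and the p-values measure the spread between these libraries. In bulk RNA a gene that is lower in each cell and a smaller share of cells that express it cannot be told apart.

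Genistein is an isoflavone from soy. It binds estrogen receptors, is an agonist of the G protein-coupled receptor GPER1, and at high doses inhibits tyrosine kinases and topoisomerase II. The integrated stress response, which takes up much of what follows, starts when a stress-sensing kinase phosphorylates the translation factor eIF2alpha. Most translation then falls while the transcription factor ATF4 is made, and ATF4 with its partners switches on genes for amino acid supply, tRNA charging and, when stress lasts, the factors DDIT3 (CHOP) and ATF3.

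Both epithelial and mesenchymal markers were present in the control cells. On the FPKM scale, on which reads are divided by transcript length and library size, the intermediate filament gene VIM stood at 2735 and 2633 FPKM in the controls, and KRT8, a keratin of simple epithelia, at 1076 and 999 FPKM. All 6 acinar and all 4 endocrine marker genes stayed under the filter on low counts. Among 7 leukocyte or endothelial markers only CD14 and CD68 passed that filter, with 28 reads or fewer in any of the 4 libraries, and COL1A2, DCN and LUM of the fibroblast list had 0 to 3 reads. COL1A1, on the same list, had 1632 to 8245 reads. Of the 6 genes of that list, which also holds PDGFRB and ACTA2, 3 passed the filter.

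Read totals were 21889823 and 31991860 in the controls and 12943482 and 13396067 with genistein, so a gene with 0 reads could still be present at up to 0.232 CPM (counts scaled to library size, here 3 counts) in the shallowest library, a limit that covers counting error only. The libraries also differed in how read numbers followed the GC content of a gene's exons. Per 10 points of GC, log2 CPM relative to the mean of the PANC1 libraries rose by 0.30 in control I and moved by -0.08 in control II, -0.07 in genistein I and -0.15 in genistein II. Across 16563 genes the difference between the 2 controls followed GC with a Spearman rho of 0.75, and that between the 2 genistein libraries with a rho of 0.255. The log2 fold change between genistein and control followed GC with a rho of -0.33. These correlations are across genes, which are not independent replicates, and are given as descriptions.

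**Figure D1:**
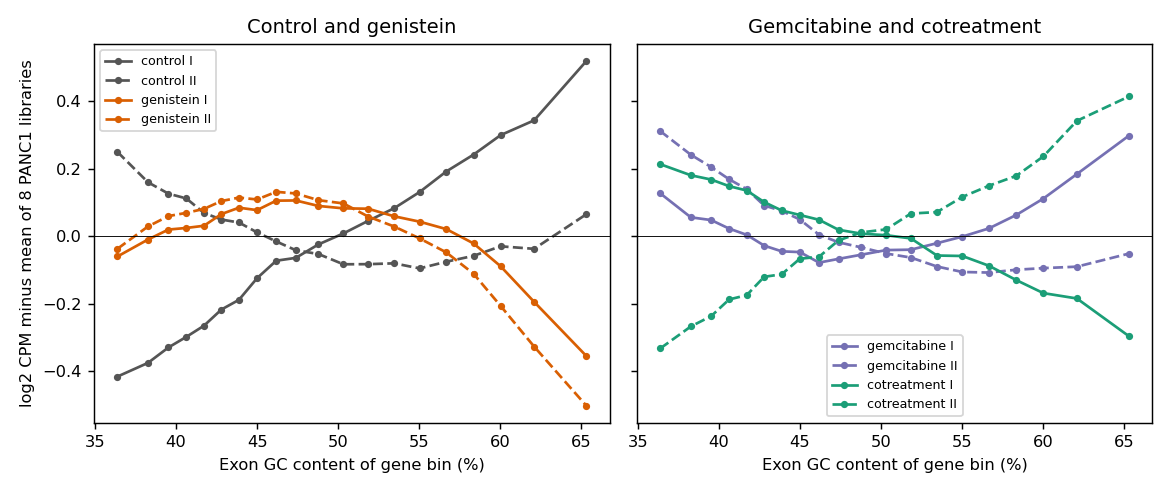
Median over genes, in bins of exon GC content (%), of log2 CPM relative to the mean of the 8 PANC1 libraries. Control and genistein are on the left, gemcitabine and cotreatment on the right, 1 line a library. Control I climbs with GC while control II does not, and both genistein libraries fall at the GC-rich end.

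Because of these trends fold changes are given as fitted to the deposited counts, after a correction for GC, or both. The correction removes each library's smooth trend with GC. From the gene lists up to the comparison with MiaPaCa2, a fold change given alone is the corrected one unless marked as deposited. The correction also takes out any part of a real response that follows GC. A gene counted as changed when its adjusted p was at most 0.05 (limma-voom with Benjamini-Hochberg adjustment), its log2 fold change was at least 0.4 in size, and its mean level with genistein was above 1 FPKM.

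With the deposited counts 10 genes passed, 0.0591% of the 16909 tested, and all 10 rose with genistein. None fell, although 1474 genes were lower and 1778 higher at an unadjusted p of at most 0.05. The edgeR quasi-likelihood test called 12 genes, 11 higher and 1 lower. DESeq2 called 753, of which 237 were higher and 516 lower, and the fit to only these 4 libraries called 361, 49 higher and 312 lower. With all 16 libraries in 1 model 715 passed, 366 higher and 349 lower, so the split between rises and falls depended on the model. After the GC correction 1223 genes passed (7.23%), 695 higher (4.11% of those tested) and 528 lower (3.12%), and the 10 genes were among them.

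These counts rested on the few libraries there are. As deposited, no gene passed without genistein I, without genistein II or without control II, and 1 gene passed without control I. After the GC correction 1078 genes passed without control I and 686 without control II, but 10 without genistein I and 7 without genistein II. In these fits the lone library of a group is taken to vary as the other groups do.

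Of the 10 genes 4 belong to the integrated stress response: ATF4, DDIT3, ATF3 and ASNS. ATF4 (chromosome 22, 39915700 to 39918688, GRCh37), the transcription factor at the centre of that response, had 160 and 138 CPM in the controls and 267 and 267 CPM with genistein. Its log2 fold change was 0.85 (SE 0.10, adjusted p = 0.0441). The genistein libraries lay above both controls by a wide margin and were closer to each other than the controls were.

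DDIT3 (chromosome 12, 57910371 to 57915520), which encodes the pro-apoptotic factor CHOP, went from 25.9 and 28.0 CPM to 60.7 and 55.2 CPM, a log2 fold change of 1.10 (SE 0.13, adjusted p = 0.0499). ATF3 (chromosome 1, 212738676 to 212794119), a stress-induced repressor, went from 6.75 and 5.82 CPM to 16.4 and 19.5 CPM, a log2 fold change of 1.52 (SE 0.16, adjusted p = 0.0395). ASNS (chromosome 7, 97480989 to 97501854), asparagine synthetase, went from 303 and 298 CPM to 611 and 676 CPM, a log2 fold change of 1.10 (SE 0.09, adjusted p = 0.0264). In each of these genes both genistein libraries lay above both controls. That order also held in 28.4% of the 16909 genes tested, with 22% the other way, and the rule for naming genes required it. Of the exons of ASNS, 49.3% overlap another annotated gene on the same strand, and 31.6% of those of DDIT3 overlap a gene on the opposite strand. How the counting treated such reads is not given in the sources used here.

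FTL, NQO1 and SCD were also abundant. FTL (chromosome 19, 49468566 to 49470136), the light chain of the iron store ferritin, went from 1547 and 1307 CPM to 2575 and 2472 CPM (log2 fold change 0.84, SE 0.09, adjusted p = 0.0382). NQO1 (chromosome 16, 69740899 to 69760571), a quinone reductase and a common marker of the antioxidant factor NRF2, went from 450 and 421 CPM to 708 and 720 CPM (log2 fold change 0.72, SE 0.07, adjusted p = 0.0382). SCD (chromosome 10, 102106990 to 102124583), the desaturase that makes monounsaturated fatty acids, went from 418 and 422 CPM to 677 and 689 CPM (log2 fold change 0.70, SE 0.07, adjusted p = 0.0382). On the FPKM scale, which allows levels to be compared between genes, FTL had the highest mean level of the 10 genes with genistein at 3463 ± 88.1 (SD, n = 2), followed by NQO1 at 652 ± 4.95.

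The remaining 3 genes had low levels. The long noncoding RNA gene RP11-284F21.10 (ENSG00000272405, chromosome 1, 156611458 to 156614679) went from 4.01 and 3.52 CPM to 15.5 and 14.4 CPM, a log2 fold change of 1.998 (SE 0.17, adjusted p = 0.0264), or 3.99 times on the linear scale. FAM129A (chromosome 1, 184759858 to 184943640), also known as NIBAN1, went from 3.91 and 4.72 CPM to 16.8 and 15.6 CPM, a log2 fold change of 1.90 (SE 0.20, adjusted p = 0.0382). GRAMD2 (chromosome 15, 72452147 to 72490128) went from 5.43 and 5.33 CPM to 14.6 and 12.5 CPM, a log2 fold change of 1.33 (SE 0.16, adjusted p = 0.0499). NIBAN1 is itself known as a gene induced by stress. None of the 3 had groups that overlapped.

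**Figure D2:**
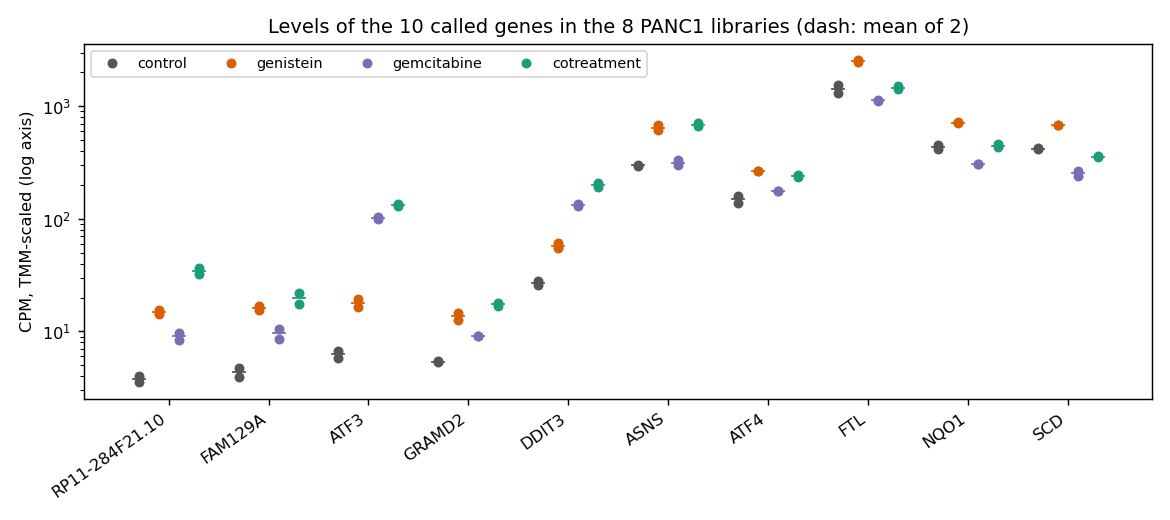
TMM-scaled CPM (log axis) of the 10 genes that passed with the deposited counts, in each of the 8 PANC1 libraries, grouped by treatment, with a dash at the mean of each pair. Both genistein points lie above both control points in every gene, which the naming rule required. Both cotreatment points lie above both gemcitabine points. With gemcitabine alone ATF3 and DDIT3, and less so RP11-284F21.10, FAM129A, GRAMD2 and ATF4, lie above the controls, while FTL, NQO1 and SCD lie below.

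The same question could be asked on libraries that the comparison above did not use, since the cotreatment and gemcitabine groups also differ only by genistein. The 2 comparisons share no library but share the model's estimate of spread and the centre of the GC correction. As deposited 3 genes passed there (0.0177%), ASNS and RP11-284F21.10 higher (0.0118%) and KLF6 lower (0.00591%), and all 10 genes had the same sign. ASNS went from 301 and 332 CPM with gemcitabine to 705 and 667 CPM with both drugs (log2 fold change 1.12, adjusted p = 0.0122), and RP11-284F21.10 from 9.63 and 8.43 CPM to 32.6 and 36.3 CPM (log2 fold change 1.93, adjusted p = 0.0122). Both fold changes were close to those of genistein alone. ATF3 stood at 99.5 and 103.8 CPM with gemcitabine alone and at 129 and 135 CPM with both drugs, and DDIT3 at 131 and 135 CPM and 210 and 193 CPM. Their log2 fold changes there were 0.37 and 0.60 and did not pass as deposited (adjusted p = 0.205 and 0.1109). After the GC correction DDIT3 passed (0.51, adjusted p = 0.00816). A limma-voom test of the difference from genistein alone passed for neither gene. Its adjusted p was 0.734 for each as deposited, and 0.0856 for ATF3 and 0.285 for DDIT3 after the correction.

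After the GC correction 1239 genes passed in that comparison (7.33%), 680 higher (4.02%) and 559 lower (3.31%). Of the 1223 genes that passed for genistein alone, 426 also passed there, which is 34.8% of the genes of the first comparison and 34.4% of those of the second, and 423 of the 426 had the same direction. Counting sign alone, 1148 of the 1223 (93.9%) had the same direction. The second count was itself fragile, at 648 and 442 without cotreatment I or II and at 50 and 20 without gemcitabine I or II.

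The integrated stress response list held 50 genes, all of them tested. As deposited 4 rose and none fell. After the GC correction 22 rose and none fell, against 4.11% of all genes that rose, and the median log2 fold change was 0.33 against 0.01 over all genes tested. This list and those below were chosen with earlier results of these data known, so such shares are descriptions and not independent support. The list counts 22 without control I and 15 without control II, but 2 without genistein I and 1 without genistein II. All 22 had the same sign when genistein was added to gemcitabine, and 10 of them passed there. Among all 1223 genes called after the correction, 93.9% had the same sign there and 34.8% passed. Over the whole list 11 rose and 2, GDF15 and SLC38A2, fell in that comparison, against 4.02% and 3.31% of all genes. The list's median there was 0.10, with 16 of 50 members below 0. One of the 22, the proline synthesis gene PYCR1, had the opposite sign as deposited, at -0.13 against 0.44 after the correction.

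Among 11 regulators of the response 6 rose after the correction. Besides ATF4, DDIT3 and ATF3 these were CEBPG, CEBPB and TRIB3, of which CEBPB and CEBPG encode dimer partners of ATF4 and TRIB3 a pseudokinase that restrains it. TRIB3 went from 71.9 and 54.8 CPM to 90.8 and 89.0 CPM, with a log2 fold change of 0.54 as deposited (adjusted p = 0.208) and 0.80 after correction (SE 0.08, adjusted p = 0.00306). The GC-rich CEBPB went from 0.40 (adjusted p = 0.278) to 1.15 (SE 0.20, adjusted p = 0.0124), and did not pass when genistein was added to gemcitabine (log2 fold change 0.11, adjusted p = 0.734).

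Of 8 stress effectors 5 rose after the correction. CHAC1, which degrades glutathione, went from 26.4 and 20.7 CPM to 45.1 and 46.9 CPM, and its corrected log2 fold change of 1.48 (SE 0.10, adjusted p = 0.000645) stood beside 1.22 (SE 0.09, adjusted p = 0.00126) on top of gemcitabine. As deposited CHAC1 stood at 0.99 (adjusted p = 0.121). SESN2, an inhibitor of mTORC1 signalling, had a corrected log2 fold change of 0.78 (adjusted p = 0.00348), and VLDLR, a lipoprotein receptor, one of 0.74 (adjusted p = 0.0228).

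The amino acid synthesis genes held 7 rises among 12. With ASNS these included the serine pathway enzymes PHGDH and PSAT1, the cystathionine lyase CTH, the mitochondrial PEP carboxykinase PCK2 and the alanine transaminase GPT2. PSAT1 went from 194 and 217 CPM to 333 and 376 CPM, with a log2 fold change of 0.78 as deposited (adjusted p = 0.0608) and 0.64 after correction (adjusted p = 0.00568). PCK2 went from 78.8 and 57.2 CPM to 125 and 113.3 CPM, with 0.85 as deposited (adjusted p = 0.1107) and 0.95 after correction (adjusted p = 0.0022). PSAT1, PCK2, CTH, GPT2 and PHGDH also passed when genistein was added to gemcitabine, at corrected log2 fold changes of 0.65, 0.91, 1.15, 0.59 and 0.53.

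Of 7 amino acid transporters 3 rose after the correction, among them SLC7A11, which imports cystine (0.54, SE 0.11, adjusted p = 0.0218). Its controls, at 9.68 and 18.7 CPM, differed by more than its genistein libraries did from control II, at 19.6 and 19.0 CPM. Of 12 tRNA charging genes only AARS, the alanyl-tRNA synthetase, passed, at 475 and 398 CPM against 671 and 659 CPM (corrected log2 fold change 0.56, adjusted p = 0.00296). IARS and EPRS, the synthetases for isoleucine and for glutamate and proline, had corrected adjusted p of 0.0317 and 0.0463 with log2 fold changes of 0.30 and 0.29, under the fold required.

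The CARE element, to which ATF4 and its partners bind, has the core TTGCATC. This core was looked for on both strands in RefSeq promoters (GRCh38.p14), each running from 250 bases before to 50 bases after a gene's start. A promoter was given for 42 of the 50 members, and 8 of these (19.0%) held the core, against 2.42% of all 27305 promoters. The 8 were CHAC1 and the tRNA synthetases AARS1, CARS1, EPRS1, IARS1, MARS1, NARS1 and TARS1 (the files list them without the final 1). In 3 of them the core lay before the start (7.14% against 2.07% of all promoters), and these stretches are shown because they belong to the stress effector with the largest corrected rise and to 2 synthetases, with the core in capitals.
CHAC1 (chr15:40953236-40953295, plus strand): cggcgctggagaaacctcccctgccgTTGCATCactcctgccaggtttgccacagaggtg
AARS1 (chr16:70289660-70289719, minus strand): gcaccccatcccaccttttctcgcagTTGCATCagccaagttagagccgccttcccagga
IARS1 (chr9:92293698-92293736, minus strand): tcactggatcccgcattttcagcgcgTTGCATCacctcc
The core begins 209 bases before the start in CHAC1, 187 in AARS1 and 13 in IARS1. Of the 8 members that hold it CHAC1 and AARS passed after the correction. No match was found before the start of ASNS, ATF3, DDIT3 or ATF4, which says only that these letters are not in that stretch. A match of letters does not show that a factor was bound.

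The ER chaperones and sensors of the unfolded protein response, a second branch of stress signalling, gave 1 call. None of 23 passed as deposited, and after the correction 1 fell (SEC61B, part of the protein channel of the ER membrane, log2 fold change -0.43, adjusted p = 0.023) and none rose. That 1 fall is 4.35% of the list, against 3.12% of all genes, and the corrected median of the list was 0.05. The difference between this list and the integrated stress response was not tested. The letters CCACG, part of the ER stress element, were in 77.3% of the 22 promoters given for this list and in 37.9% of all promoters.

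The NRF2 antioxidant list, genes for glutathione, NADPH and iron handling, held 17 tested members. As deposited FTL and NQO1 rose, and after the correction 10 rose and none fell, with a median of 0.48, against 4.11% of all genes that rose and a median of 0.01. SLC7A11 stands on this list and on that of the integrated stress response. FTH1, the heavy chain of ferritin, went from 387 and 351 CPM to 624 and 617 CPM, with a log2 fold change of 0.76 as deposited (adjusted p = 0.0562) and 0.62 after correction (adjusted p = 0.00568), though 63.2% of its exons overlap a gene on the opposite strand. TXNRD1, thioredoxin reductase, went from 907 and 1067 CPM to 1537 and 1531 CPM, with 0.63 (adjusted p = 0.0915) and 0.48 (adjusted p = 0.00641). ME1, a source of NADPH, reached 0.83 (adjusted p = 0.109) and 0.74 (adjusted p = 0.00495), and OSGIN1, a growth inhibitor induced by oxidative stress, 0.80 (adjusted p = 0.165) and 1.03 (adjusted p = 0.00568). The list counts 1 rise without either genistein library, 8 without control I and 10 without control II.

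HMOX1, the heme oxygenase of the same list, moved differently on the 2 backgrounds. It went from 147 and 110.5 CPM in the controls to 162 and 158 CPM with genistein, and from 144 and 119 CPM with gemcitabine to 80.7 and 102.4 CPM with both drugs. After the GC correction the first change was 0.53 (SE 0.07, adjusted p = 0.00663) and the second -0.60 (SE 0.08, adjusted p = 0.00656), and the test of their difference gave -1.13 (adjusted p = 0.0231). SQSTM1, the autophagy receptor p62, was the other gene for which that test passed, so that 2 genes did (0.0118%). It went from 1342 and 1123 CPM to 2136 and 2098 CPM with genistein alone (corrected log2 fold change 0.96, adjusted p = 0.000192) and from 1315 and 1217 CPM to 1329 and 1558 CPM on top of gemcitabine (0.12, adjusted p = 0.157), a difference of -0.85 (adjusted p = 0.0153). As deposited no gene passed the test of this difference (832 at an unadjusted p of at most 0.05, edgeR 0 and DESeq2 4 at an adjusted p of at most 0.05), and with a replicate block beside the GC correction none did.

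The metallothionein list, of genes that bind zinc and other metals together with the zinc exporter SLC30A1 and the zinc sensor MTF1, held 3 rises among 7 tested members after the correction, against 4.11% of all genes. The count was 0 without either genistein library and 1 without either control or with a replicate block. MT1X had a corrected log2 fold change of 0.62 (adjusted p = 0.0105), MT1F one of 0.58 (adjusted p = 0.0489) and MT1E one of 0.44 (adjusted p = 0.0252), and all 3 passed in the same direction when genistein was added to gemcitabine. Genes of the AHR pathway held 2 rises among 9, NQO1 and CYP1A1, the classic target of that receptor for aromatic compounds (22.1 and 18.1 CPM against 28.6 and 30.7 CPM, corrected log2 fold change 0.50, adjusted p = 0.0211). The AHR list held 2 rises with a replicate block, but its calls depended on having both genistein libraries.

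Cholesterol and fatty acid synthesis held 7 rises and no fall among 38 tested members after the correction (18.4%, against 4.11% of all genes that rose). As deposited it held 1 rise, SCD. The other fatty acid enzymes that rose were the desaturases FADS1 (0.58, adjusted p = 0.00826) and FADS2 (0.74, adjusted p = 0.000934). TM7SF2 and DHCR7, reductases of cholesterol synthesis, had corrected log2 fold changes of 0.85 (adjusted p = 0.00837) and 0.44 (adjusted p = 0.00568). INSIG1, which holds the sterol-sensing complex in the ER, went from 71.8 and 85.5 CPM to 124 and 133 CPM (0.71 as deposited, adjusted p = 0.104, and 0.55 after correction, adjusted p = 0.00568). The members called numbered 1 without either genistein library and 6 or 7 without a control.

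**Figure D3:**
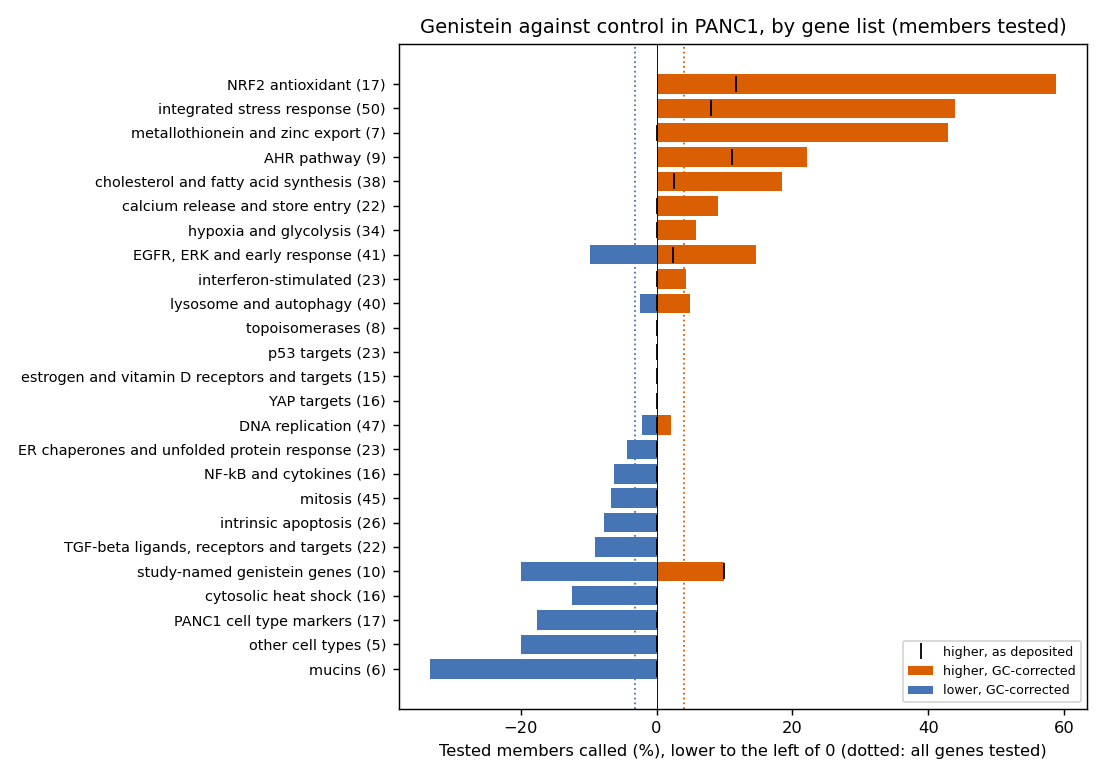
Percent of the tested members of each gene list (number tested in brackets) that passed after the GC correction, higher to the right and lower to the left, with a black tick for rises as deposited and dotted lines for all genes tested. The NRF2 and integrated stress response lists hold the most rises by share among lists of 10 or more tested members.

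Early response genes and outputs of EGFR and ERK signalling went both ways. Of 41 tested members 6 rose and 4 fell after the correction (14.6% and 9.76%, against 4.11% and 3.12% of all genes). With a replicate block beside the correction 4 rose and 4 fell. Like the corrected calls as a whole, these depended on having both genistein libraries. As deposited ATF3 alone passed. The falls were the transcription factors JUN (57.1 and 47.8 CPM against 25.0 and 28.8 CPM, corrected log2 fold change -0.95, adjusted p = 0.0137) and KLF6 (151 and 175 CPM against 104.8 and 116.1 CPM, -0.72, adjusted p = 0.00388), the ERK pathway inhibitor SPRY1 (-0.73, adjusted p = 0.0126) and PHLDA1 (-0.85, adjusted p = 0.0107). KLF6 also fell when genistein was added to gemcitabine, from 313 and 326 CPM to 142 and 138 CPM (-1.26, adjusted p = 0.000416). The rises included TGFA, a ligand of EGFR, at 2.30 and 2.29 CPM against 5.50 and 4.41 CPM (0.95, adjusted p = 0.0325), DUSP5, a phosphatase of nuclear ERK (0.48, adjusted p = 0.0321), and ETV4 (0.56, adjusted p = 0.0188).

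Mucins and ductal markers were lower where they passed. MUC1, a transmembrane mucin of ductal cells and one of the genes the study names for genistein, had 31.6 and 27.8 CPM in the controls and 17.6 and 15.5 CPM with genistein, so the groups did not overlap. Its log2 fold change was -0.83 as deposited (SE 0.15, adjusted p = 0.101) and -0.62 after correction (SE 0.11, adjusted p = 0.0123), and with gemcitabine it went from 25.3 and 23.8 CPM to 12.4 and 13.6 CPM (-0.98 after correction, adjusted p = 0.00419). MUC12 fell by 0.73 on the log2 scale after correction (adjusted p = 0.0482). MUC16 (CA125) had -1.68 (adjusted p = 0.0035) and MUC5B -1.37 (adjusted p = 0.0245), but both lay under 1 FPKM with genistein and so were not counted. The mucins were 6 tested of 13 listed, of which 2 fell after the correction, against 3.12% of all genes. With a replicate block 1 fell, and the mucin calls depended on having both genistein libraries.

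Of 10 ductal epithelial markers 3 fell after the correction, against 3.12% of all genes. These were the keratins KRT7 (6.01 and 3.94 CPM against 1.94 and 1.86 CPM, log2 fold change -1.18, adjusted p = 0.0321) and KRT8 (-0.48, adjusted p = 0.0303) and the adhesion gene CDH1 (23.6 and 20.5 CPM against 15.8 and 13.2 CPM, -0.74, adjusted p = 0.0178). None of the 3 passed when genistein was added to gemcitabine. Of 7 tested mesenchymal markers none was called, and VIM, with a corrected adjusted p of 0.00568, moved by -0.37, under the fold required. The number of ductal and mesenchymal markers called was 0 without either genistein library.

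With genistein against control, the other genes the study names for genistein gave no call as deposited apart from DDIT3. SP1, a factor for GC boxes, fell after the correction (177 and 189 CPM against 150 and 150 CPM, log2 fold change -0.45, adjusted p = 0.00857). ITPR1, a calcium release channel of the ER, had 18.5 and 20.2 CPM against 28.1 and 27.1 CPM and did not overlap, with 0.51 as deposited (adjusted p = 0.131) and 0.36 after correction (adjusted p = 0.0606). CASP9, the initiator caspase of the mitochondrial pathway, had 0.40 (adjusted p = 0.272) and 0.35 (adjusted p = 0.103), RXRA, the partner of the vitamin D receptor, -0.65 (adjusted p = 0.149) and -0.22 (adjusted p = 0.114), and CHRNA7, a nicotinic receptor, -0.61 (adjusted p = 0.465) and -0.76 (adjusted p = 0.219). The study presents its proposed targets, among them VDR, RXRA, SP1, DDIT3 and CASP9, for cotreatment against gemcitabine, which is another comparison. In that comparison 3 of the 10 tested study-named genes rose and 2 fell after the correction. The shares of all genes there were 4.02% and 3.31%.

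GPER1, the membrane estrogen receptor, had 8.06 and 5.98 CPM in the controls and 6.88 and 6.12 CPM with genistein, and the groups overlapped. Its log2 fold change was -0.08 (SE 0.34, adjusted p = 0.925) as deposited and 0.29 (SE 0.17, adjusted p = 0.305) after correction, so the sign depended on the correction and no difference was detectable. The nuclear receptor gene NR4A1 likewise went from -0.15 (adjusted p = 0.847) to 0.14 (adjusted p = 0.70). VDR, the vitamin D receptor, had 9.78 and 9.89 CPM against 9.46 and 9.21 CPM (-0.07 in both fits, adjusted p = 0.829 as deposited). When genistein was added to gemcitabine VDR went from 15.7 and 15.5 CPM to 20.4 and 22.1 CPM (corrected log2 fold change 0.35, adjusted p = 0.0677). ESR1 had 0 reads in all 4 libraries and ESR2 at most 1, so neither nuclear estrogen receptor was detectable at this depth. None of the 15 tested estrogen and vitamin D receptors, partners and targets passed in either fit.

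Mitosis and DNA replication genes gave few calls. Of 45 mitosis genes 3 fell after the correction, against 3.12% of all genes. When genistein was added to gemcitabine 9 fell, against 3.31% of all genes in that comparison. The 3 were the kinetochore genes NUF2 (-0.95, adjusted p = 0.00673) and CENPF (-0.62, adjusted p = 0.0201) and the kinesin KIF18A (-0.89, adjusted p = 0.0219). The controls differed widely in them, at 92.7 and 157 CPM for CENPF, 16.5 and 28.7 CPM for NUF2 and 7.87 and 17.4 CPM for KIF18A, while the genistein pairs were 86.3 and 85.7 CPM, 12.5 and 10.8 CPM and 5.99 and 6.81 CPM. CENPE, a motor of chromosome alignment, had -1.83 (adjusted p = 0.00632) at under 1 FPKM with genistein. The count of mitosis genes that fell was 8 without control I, 1 without control II, 0 without either genistein library and 6 with the correction as offsets in edgeR. Of 47 DNA replication genes PRIM1, a primase subunit, rose (0.41, adjusted p = 0.0252) and MCM5, part of the replicative helicase, fell (-0.40, adjusted p = 0.0439) after the correction. Each is 2.13% of the list, under the 4.11% and 3.12% of all genes. The 8 topoisomerases, the 23 tested p53 targets and the 16 YAP targets gave no call in either fit.

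Cytosolic heat shock genes held 2 falls among 16 after the correction (12.5%, against 3.12% of all genes). These were the small heat shock protein gene HSPB1 (-0.54, adjusted p = 0.0061) and CHORDC1, a cochaperone of HSP90 (-0.46, adjusted p = 0.0266). Both also fell when genistein was added to gemcitabine (-0.46, adjusted p = 0.00951 and -0.54, adjusted p = 0.0164). The abundant chaperones HSPA8 and HSP90AB1 had small differences of -0.30 and -0.32 (adjusted p = 0.00857 and 0.00514), under the fold required. The list held 1 fall with a replicate block, and its calls depended on having both genistein libraries.

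In the remaining lists the calls after the correction were scattered, and without genistein I or without genistein II none of them held more than 1. Over all genes tested 4.11% rose and 3.12% fell. The shares that rose were 9.09% of calcium, 5.88% of hypoxia and glycolysis, 5% of lysosome and autophagy and 4.35% of interferon-stimulated genes. Those that fell were 7.69% of apoptosis, 9.09% of TGF-beta, 6.25% of NF-kB and cytokine and 2.5% of lysosome and autophagy genes. With 1 or 2 calls a direction, no list is read as changed. Of 22 calcium genes 2 rose, among them the ryanodine receptor RYR1 (0.55, adjusted p = 0.0102). Of 34 hypoxia and glycolysis genes the isozyme genes ENO2 (0.92, adjusted p = 0.00348) and ALDOC (0.80, adjusted p = 0.00969) rose. Of 26 apoptosis genes 2 fell, among them BMF, a BH3-only activator (36.9 and 29.1 CPM against 21.4 and 18.9 CPM, -0.68, adjusted p = 0.00717). Of 40 lysosome and autophagy genes SQSTM1 and the cholesterol transporter NPC1 (0.43, adjusted p = 0.00693) rose and TFEB, a master factor of lysosome genes, fell (-0.75, adjusted p = 0.0408). Of 22 TGF-beta genes the ligand TGFB2 (-0.64, adjusted p = 0.0107) and the matrix gene LTBP2 (-0.44, adjusted p = 0.00608) fell. Of 16 tested NF-kB and cytokine genes the chemokine CXCL1 fell, and of 23 interferon-stimulated genes IFI35 rose (0.57, adjusted p = 0.0126).

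**Figure D4:**
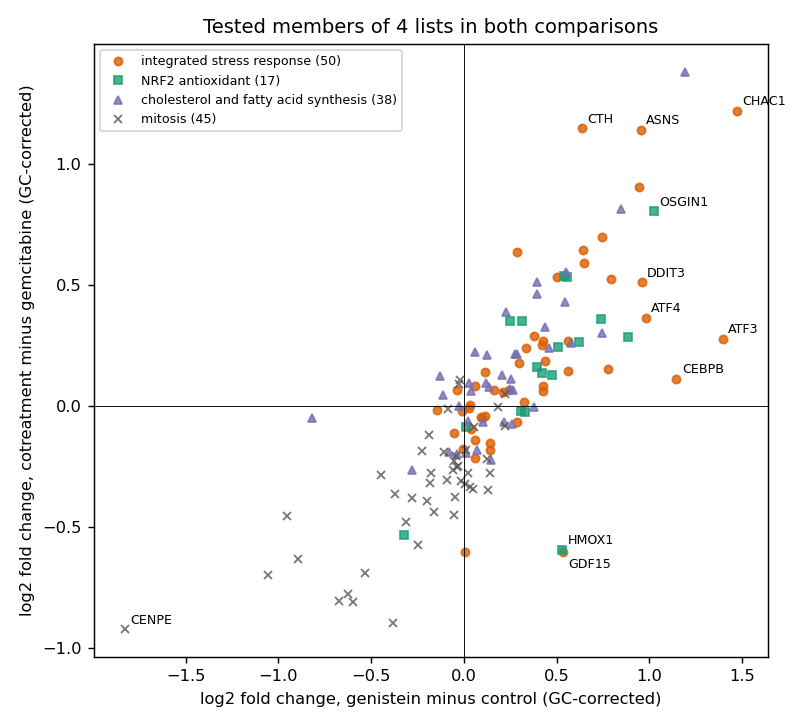
GC-corrected log2 fold changes of the tested members of 4 gene lists for genistein against control (x axis) and for cotreatment against gemcitabine (y axis), 1 point a gene. Most integrated stress response points lie to the right of 0, CHAC1, ASNS and CTH are high on both axes, and HMOX1 lies to the right of 0 but below it on the y axis.

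Further genes were picked after their values were seen, as the 15 largest rises and 15 largest falls after the correction that passed in both PANC1 comparisons in 1 direction, with CPM that did not overlap, a mean of at least 50 counts and under 20% of exons shared with another gene. Their selection used the values, so these are descriptions. After RP11-284F21.10 and FAM129A the largest rises were CTF1, the cytokine cardiotrophin-1 (3.32 and 3.49 CPM against 6.07 and 7.59 CPM, corrected log2 fold change 1.505), CHAC1, and LAMP3, a lysosomal membrane protein (3.57 and 3.88 CPM against 10.5 and 9.91 CPM, 1.293). SLFN5, of the Schlafen family, went from 3.76 and 4.94 CPM to 10.6 and 11.0 CPM (1.22).

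The largest falls of this set were CXCL1 (5.52 and 5.46 CPM against 2.51 and 2.32 CPM, -1.33) and the kinesin KIF20B (13.4 and 25.0 CPM against 6.96 and 7.12 CPM, -1.31). In KIF20B, GOLGA4 and the chromatin remodeller gene ATRX, whose exons have 34.3%, 38.4% and 34.9% GC, control II stood well above control I. The controls of ATRX had 18.2 and 38.1 CPM and its genistein libraries 13.4 and 13.5 CPM. The secreted WNT inhibitor gene DKK1 had closer controls, at 207 and 246 CPM against 132 and 140 CPM (-0.90), as did NFATC2, a calcium-responsive transcription factor, at 26.3 and 28.1 CPM against 15.3 and 13.9 CPM (-1.01). COL1A1, a collagen gene, had 367 and 266 CPM against 147 and 126 CPM (-0.93), and the glycosyltransferase B3GNT7 205 and 157 CPM against 78.5 and 67.2 CPM (-0.96). All of these had the same direction when genistein was added to gemcitabine, which the selection required.

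The response could also be set against that of MiaPaCa2 in a model of all 16 libraries. In that model 587 of 17863 genes passed for genistein in MiaPaCa2 (3.29%), 2.28% higher and 1.01% lower, and 1649 after the GC correction (9.23%), 5.83% higher and 3.4% lower. The response differed between the lines for 6 genes (0.0336%), 5 of them with a lower fold change in PANC1 (0.028%) and 1 with a higher one (0.0056%). With library size alone in place of TMM scaling 8 genes differed, 5 higher and 3 lower, so the balance of directions depended on the scaling. No gene differed without any 1 of the 4 MiaPaCa2 libraries or the 2 genistein libraries of PANC1, while 10 did without control I of PANC1 and 86 without control II. With the GC correction 460 genes differed (2.58%), 142 with a higher fold change in PANC1 (0.795%) and 318 with a lower one (1.78%). The gene with the larger response in PANC1 was RP11-284F21.10, which went from 4.11 and 3.41 CPM to 15.01 and 13.99 CPM in PANC1 and from 62.6 and 57.7 CPM to 95.3 and 90.5 CPM in MiaPaCa2, a difference in log2 fold change of 1.35 (SE 0.19, adjusted p = 0.0279). It was higher in MiaPaCa2 to begin with, and the genistein libraries lay above the controls in both lines.

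The 4 genes given next lay outside the rule for named genes and were chosen after their values were seen. VDR went from 2.98 and 3.29 CPM to 8.55 and 8.31 CPM in MiaPaCa2, while in PANC1 it stood at 10.03 and 9.57 CPM and 9.15 and 8.95 CPM, a difference of -1.53 (adjusted p = 0.0279). RRM2, a subunit of ribonucleotide reductase, the enzyme that gemcitabine inhibits, went from 549 and 536 CPM to 803 and 776 CPM in MiaPaCa2 and from 547 and 554 CPM to 483 and 504 CPM in PANC1, a difference of -0.70 (adjusted p = 0.0279). NPTX1, a neuronal pentraxin, and FAM46C differed by -1.61 and -1.54 (adjusted p = 0.0279 each), each rising in MiaPaCa2 with log2 fold changes of 1.14 and 1.59. Of the 10 genes called in PANC1, 6 also passed in MiaPaCa2 with the same sign: RP11-284F21.10, DDIT3, ASNS, FTL, NQO1 and SCD. ATF4, at 0.22 in MiaPaCa2 (adjusted p = 0.22), and GRAMD2, at -0.06 (SE 0.80, adjusted p = 0.976), did not pass there. Nor did FAM129A, at 0.34 (adjusted p = 0.182), or ATF3, at 0.83 (adjusted p = 0.17). For these genes the difference between the lines did not pass as deposited either. After the GC correction it passed for ATF4 (0.81, adjusted p = 0.00923) and FAM129A (1.36, adjusted p = 0.0014).

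**Figure D5:**
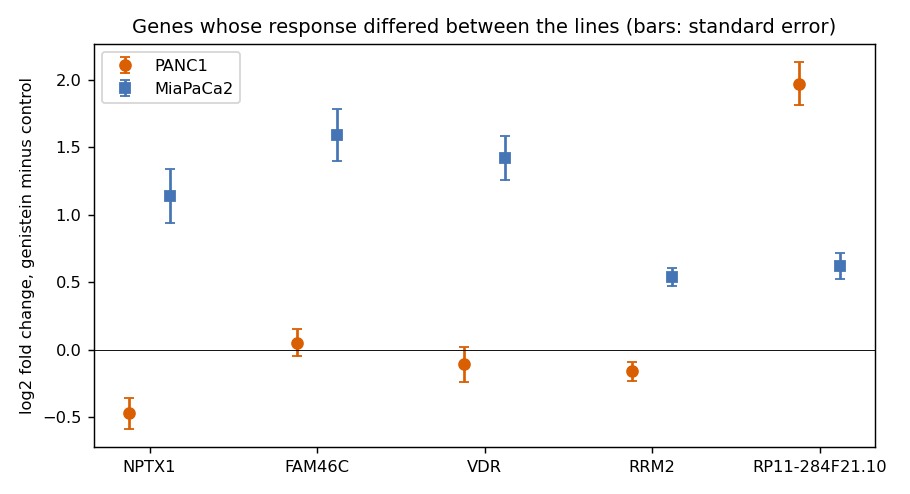
Log2 fold change with genistein in PANC1 and MiaPaCa2, with standard error, for 5 of the 6 genes whose response differed between the lines in the model of 16 libraries. NPTX1 is below 0 in PANC1 and above it in MiaPaCa2, and RP11-284F21.10 is above 0 in both with the larger value in PANC1.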

How the data were processed

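The 16 libraries were poly-A selected, stranded, and sequenced as single reads. According to the study's methods and the submitters' processing notes, the authors aligned reads to GRCh37 with TopHat2 2.0.4, removed multiply aligned reads with Picard 1.29, counted with HTSeq 0.6.1 and computed FPKM with Cufflinks 2.1.1. The deposited gene table holds raw read counts, and a second table deposited by the authors holds FPKM. The gene annotation and strand setting are not given in the sources used here. The isoform table was not used.

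Counts were fitted with limma-voom (limma 3.58.1, edgeR 4.0.16, R 4.3.3) on the 8 PANC1 libraries with TMM scaling and edgeR's filter on low counts. Differences between lines used all 16 libraries. Adjusted p were Benjamini-Hochberg over all genes tested. Gene symbols came from the FPKM table (for 128 identifiers with several rows the first was used). CPM are TMM-scaled. For the GC correction, exon GC of 87.4% of identifiers was taken from GENCODE v44 on GRCh37, and each library's loess trend (span 0.3, degree 1) of log2 CPM relative to its line was subtracted. The 346 tested genes with no GC value were left as they were. Fold changes are differences of voom log2 CPM. Named genes were the called genes (12 largest each way, CPM not overlapping, at least 50 counts on average, holding after the GC correction), members of the gene lists, and sets described as chosen after values were seen. The members and lists were chosen with earlier results of these data known. Some genes that passed are not reported here. Promoters came from RefSeq. Fits were tested on simulated counts, and alternatives included DESeq2 1.42.0, other scalings, FPKM, a replicate block and leaving out each library.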

Additional observations from a re-analysis of the deposited data

Results flagged for a closer look

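The response to genistein differed between the lines, by a test of the difference itself in the model of all 16 libraries, for RRM2 (-0.6988), FAM46C (-1.536), NPTX1 (-1.608), VDR (-1.528) and RP11-284F21.10 (1.347), each a log2 fold change in PANC1 minus that in MiaPaCa2. No gene passed this test when 1 of the MiaPaCa2 control or genistein libraries or 1 of the PANC1 genistein libraries was left out, and cotreatment and gemcitabine libraries were not left out.

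After the GC correction the difference between the lines passed for further genes named here. It was higher in PANC1 for the stress response genes FAM129A (1.364), ATF4 (0.8112), TRIB3 (0.7357), PCK2 (0.7309), VLDLR (1.106), SESN2 (0.6404), SLC7A11 (1.479), GPT2 (0.6116) and PYCR1 (0.5047), for FTL (0.3838), ME1 (0.6579) and SQSTM1 (0.3131), for the desaturase gene FADS2 (0.9782) and for MUC1 (0.8106). It was lower in PANC1 for SPRY1 (-0.6827), JUN (-0.9819), PHLDA1 (-0.8211), CXCL1 (-1.494), DKK1 (-0.7252), TFEB (-1.212) and VIM (-0.4031).

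Within PANC1 the effect of genistein differed with gemcitabine present, by the interaction term after the GC correction, for SQSTM1 (-0.8464) and HMOX1 (-1.125). As deposited the same terms were -0.61 for SQSTM1 and -0.87 for HMOX1, each with an adjusted p of 0.734 (limma-voom).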

How the results depend on the processing

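With 2 libraries a group and different GC trends, counts of called genes moved widely. For genistein against control (10 genes) they were 753 with DESeq2, 3 with its size factors, 18 with library size alone, 0 with a replicate block, 1223 with the GC correction, 799 with both, 3 on log2(FPKM + 1), 6 at a log2 fold change of at least 1, 361 with only the 4 libraries, 715 with all 16, and 0 to 1 leaving out each library. Chosen after seeing the data, the GC correction gave 7 to 1078 leaving out each library (1078 without control I, 686 without control II), 856 with only the 4 libraries and 1351 as offsets in edgeR. For genistein added to gemcitabine (3 genes) they were 207 with DESeq2, 0 with the block, 1239 with the GC correction, 779 with both, 0 with only the 4 libraries, 485 with all 16, 0 leaving out each library, and after the correction 648, 442, 50 and 20 without cotreatment I or II or gemcitabine I or II. The interaction (0 genes) gave 4 with DESeq2 and 2 with the GC correction. The difference between lines (6 genes) gave 19 with edgeR, 185 with DESeq2, 1 without the count filter, 0 with the block, 460 with the GC correction, 240 with both, 3 and 1 on log2(FPKM + 1) and log2(FPKM + 0.1), and 0 to 86 leaving out each library. The cause of these moves was not tested. Same-numbered genistein and control libraries did not deviate together across genes (r = 0.0825, and 5.93e-05 after the GC correction). The labels share replicate numbers but do not say whether these libraries pair, and such a correlation cannot settle it. For cotreatment and gemcitabine r was -0.298, and crossing the numbers there gave 738 calls, 480 higher and 258 lower. Of 2700 values of named genes under 25 settings 2046 kept direction and side of the threshold, 535 newly passed, 88 no longer passed and 31 reversed. The reversals were VDR (0.08916 on log2(FPKM + 1), 0.1305 on log2(FPKM + 0.1), 0.04756 corrected without control II), NR4A1 (corrected 0.1388, with block 0.1431, 4 libraries 0.1384, offsets 0.125, leaving out libraries 0.1318, 0.1403 and 0.2983, FPKM scales 0.2854 and 0.5728, and -0.4073 to 0.0347 uncorrected leaving out each library), GPER1 (corrected 0.2913, with block 0.2919, 4 libraries 0.2904, offsets 0.285, leaving out libraries 0.2501, 0.2724, 0.3061 and 0.3218, and -0.3617 to 0.08243 uncorrected) and PYCR1 (corrected 0.4367, with block 0.4347, 4 libraries 0.435, offsets 0.4332, leaving out libraries 0.3806, 0.3891, 0.4706 and 0.472, and -0.455 to 0.0629 uncorrected). Depth limits genes under about 0.232 CPM in the genistein libraries.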
